A study of Rattus norvegicus with 5 samples.

Results

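Interferon-stimulated genes are the genes that cells switch on when interferon reaches its receptors, and 43 of them were listed here. A gene was taken as measured where the annotation of the array gave a probe set that gene's symbol and no other, and 40 of the 43 were found, each by a single probe set, among 29215 probe sets in all. Ddx58 was found only under the current RefSeq symbol Rig1 and is described apart, and no probe set was named Xaf1 or Parp14 here. The material was RNA of proximal tubular cells, the epithelium of the first nephron segment, taken from the kidney of Sprague-Dawley rats that had type I diabetes. There were 3 arrays of cells kept with C-peptide for 2 h, from treated animals 1, 2 and 3, and 2 arrays of cells left without it, from untreated animals 1 and 2. C-peptide is the peptide cut out of proinsulin when insulin is made, and the comparison addresses how it changes transcription early. All the animals of both groups were diabetic, so no array gives a non-diabetic level. How the diabetes was induced, the C-peptide dose and any scan batch were not known here.

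Type I and type III interferons act through receptors whose kinases activate the factor ISGF3, of which Stat2 and Irf9 encode parts. ISGF3 binds a DNA element called ISRE, while type II interferon acts largely through an element called GAS. The targets include the sensors and transcription factors of the pathway itself, so that a basal level of the set is maintained in many tissues, and effectors that degrade viral RNA, block translation or trap virus particles.

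As a group, the interferon-stimulated genes stood lower in the C-peptide-treated cells. The members were chosen with earlier results of these data known, so the counts and shares below describe the set and do not test it. Of the 40, 38 had a difference below 0, against 46.4% of all probe sets, and the count was 39 in the values as deposited and 37 with the arrays centred on their medians. The median log2 difference was -0.64, beside 0.02 over all probe sets, and 23 members were lower by more than 1.5-fold, as were 3.77% of all probe sets. At unadjusted p 0.05 in limma 24 of the 40 were lower and 0 higher, where 6.3% of all probe sets were lower and 5.06% higher. No member, and none of the 29215 probe sets (0%), passed at adjusted p 0.05, and the lowest adjusted p of a member was 0.0966. In 27 members every C-peptide-treated array lay below both untreated arrays, as in 13.8% of all probe sets, and in 0 members the order was the other way, as it was in 16.1% of all probe sets. Above the median intensity, this order held for 23 of 33 members with C-peptide lower, and for 2531 of 14607 probe sets. At unadjusted p 0.05, 21 of these 33 members were lower, and 1253 of the 14607 probe sets. In a population of cells, fewer cells that make these transcripts and less transcript per cell cannot be told apart. With no call at the adjusted threshold, single genes are described by their values on the 5 arrays.

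Every level below is a probe-set intensity in arbitrary units after quantile normalisation, which gives all arrays one distribution, with treated animals 1, 2 and 3 and untreated animals 1 and 2 in that order. A difference is C-peptide minus untreated on the scale of log2(intensity + 16) with its standard error, and the adjusted p is that of limma over all probe sets. The array medians before normalisation were between 60.1 and 95.9.

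Windows of 250 bases before the RefSeq gene start (GRCr8) were at hand for 30 of the 40 members. The core of ISRE, searched as TTTC, any 2 bases and TTTC on either strand, was in 17 of these 30 windows, or 56.7%, and in 3.41% of 33469 promoters of the same length. GAS, searched as TTC, any 3 bases and GAA, which reads alike on both strands, was in 8 of them, or 26.7%, and in 7.67% of all promoters; 5 windows held both, and in 1 of these, that of Bst2, they overlapped. The windows below set the results side by side. Those of Oas1a, Ifi44 and Bst2 belong to the members with the smallest p among those with an ISRE core in the window, and those of Igtp and Eif2ak2 to the members with an ISRE core and the difference nearest to 0. Capitals mark the ISRE core on either strand, and pairs of overlapping matches are in one run in Oas1a and Bst2.
Oas1a (chr12:41330216-41330465, plus strand): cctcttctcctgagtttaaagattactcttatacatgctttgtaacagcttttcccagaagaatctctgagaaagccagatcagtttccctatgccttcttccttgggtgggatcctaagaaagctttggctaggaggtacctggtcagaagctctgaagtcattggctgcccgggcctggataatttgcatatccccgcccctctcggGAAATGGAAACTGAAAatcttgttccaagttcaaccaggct
Ifi44 (chr2:243303841-243304090, minus strand): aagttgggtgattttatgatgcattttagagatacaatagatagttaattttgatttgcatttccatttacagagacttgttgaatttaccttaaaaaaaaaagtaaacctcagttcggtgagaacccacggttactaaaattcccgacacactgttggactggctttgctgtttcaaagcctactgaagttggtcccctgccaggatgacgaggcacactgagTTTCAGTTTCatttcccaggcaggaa
Bst2 (chr16:18254968-18255217, minus strand): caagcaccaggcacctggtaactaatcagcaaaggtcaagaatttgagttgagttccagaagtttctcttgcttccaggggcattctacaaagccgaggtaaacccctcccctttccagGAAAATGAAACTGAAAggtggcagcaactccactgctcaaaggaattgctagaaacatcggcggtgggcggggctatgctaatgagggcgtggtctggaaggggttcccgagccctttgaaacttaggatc
Igtp (chr10:42874797-42875046, plus strand): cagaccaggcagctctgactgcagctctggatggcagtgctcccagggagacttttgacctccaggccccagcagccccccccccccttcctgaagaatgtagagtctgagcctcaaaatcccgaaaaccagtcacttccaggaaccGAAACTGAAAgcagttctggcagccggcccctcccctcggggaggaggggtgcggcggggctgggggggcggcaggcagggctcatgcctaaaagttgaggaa
Eif2ak2 (chr6:21940904-21941153, plus strand): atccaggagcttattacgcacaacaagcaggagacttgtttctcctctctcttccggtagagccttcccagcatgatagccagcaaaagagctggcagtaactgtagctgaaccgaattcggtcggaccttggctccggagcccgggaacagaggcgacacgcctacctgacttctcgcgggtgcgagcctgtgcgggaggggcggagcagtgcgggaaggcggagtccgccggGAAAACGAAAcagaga

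In the windows shown, the ISRE core nearest the gene start ended 7 bases before it in Eif2ak2, 17 in Ifi44, 26 in Oas1a, 94 in Igtp and 116 in Bst2. The 17 members with the core had a median log2 difference of -0.67. Of them 12 were lower at unadjusted p 0.05, as were 6.3% of all probe sets. The 13 windows without it belonged to members with a median of -0.36, 7 of them lower at that threshold. With the core, differences ran from -1.14 to 0.09, and without it from -1.16 to -0.01, so the ranges overlapped almost entirely. Among members with a window, the core was thus in genes at both ends of their range. A match of letters is not a shown binding site. The 10 members without a window could not be searched. They included Mx2 (-1.97) and Ifit1 (0.22), the lowest and highest differences of the set, and also Usp18 (-1.14) and Ifit2 (-1.11). The split by the core therefore leaves out both extremes of the set.

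**Figure D1:**
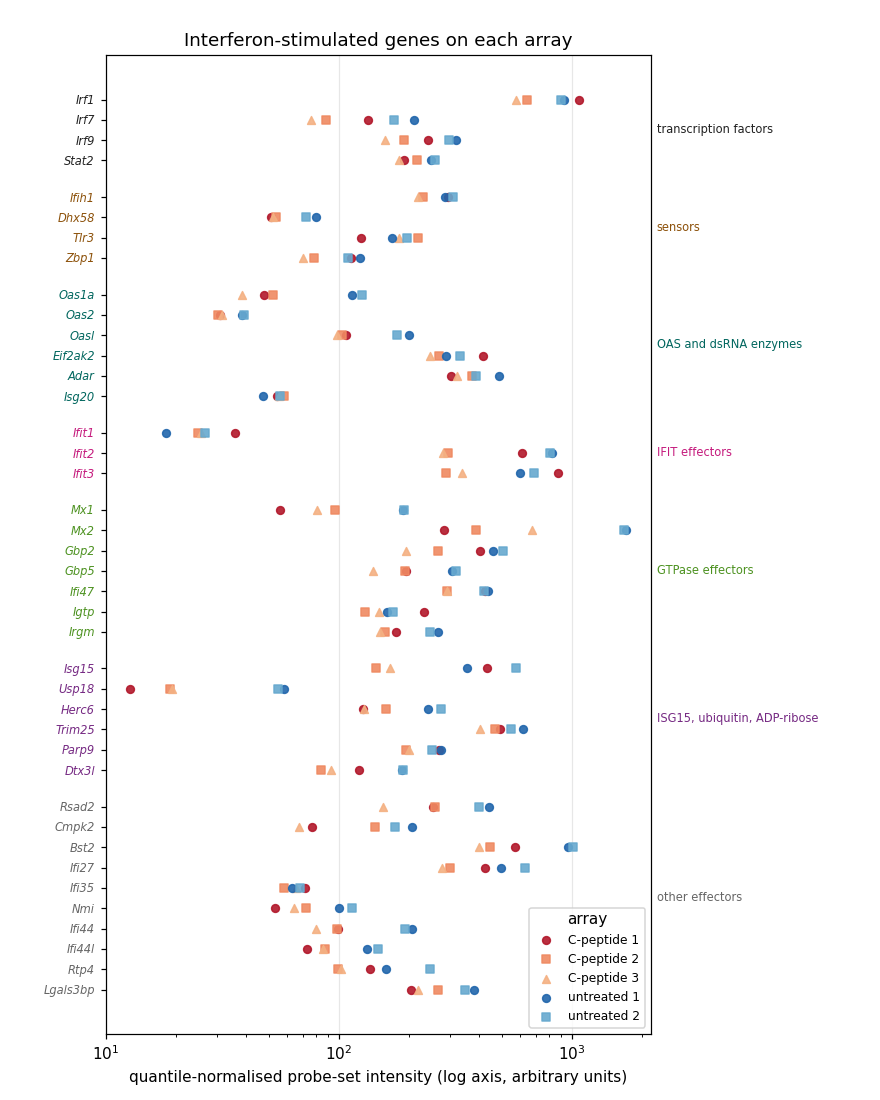
Quantile-normalised intensity (log axis, arbitrary units) of the 40 interferon-stimulated genes, 1 row a gene, grouped by role, with 1 point for each of the 3 C-peptide and 2 untreated arrays. In 27 rows all C-peptide points lie left of both untreated points, with wide gaps at Usp18, Mx2 and Oas1a.

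Of the 4 transcription factors of the response, 3 were lower at unadjusted p 0.05, as were 6.3% of all probe sets. None of the 4 passed the adjusted threshold. Irf7, the factor that amplifies type I interferon production, read 133, 88.1 and 76.1 in C-peptide-treated cells, against 209.5 and 173 in untreated cells. Irf9, the DNA-binding part of ISGF3, read 241, 189.7 and 157 in C-peptide-treated cells, against 317 and 298 in untreated cells. Stat2, which carries the activating domain of ISGF3, read 190.5, 217 and 181 in C-peptide-treated cells, against 247 and 258 in untreated cells. In these 3 genes every C-peptide-treated array lay below both untreated arrays, with log2 differences of -0.87 ± 0.23 (adjusted p = 0.218) for Irf7, -0.63 ± 0.19 (adjusted p = 0.295) for Irf9 and -0.35 ± 0.15 (adjusted p = 0.434) for Stat2. Irf1, a factor that interferon gamma and inflammatory cytokines induce, read 1071, 639 and 574 in C-peptide-treated cells, against 925 and 902 in untreated cells. Treated animal 1 was the highest array for Irf1 and the other treated arrays the lowest, so the groups overlapped, and the difference was -0.31 ± 0.26 (adjusted p = 0.708). On leaving out each array in turn it ran from -0.14, without treated animal 3, to -0.57, without treated animal 1. The median of the 4 factors was -0.49.

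The sensors of foreign nucleic acid had a median of -0.31 over the 4 measured, close to the -0.30 of the 6 enzymes that act on RNA. Dhx58 (LGP2), a regulator of the RIG-I-like helicases, read 51.1, 53.7 and 52.4 in C-peptide-treated cells, against 79.4 and 72.4 in untreated cells, without overlap, and its difference was -0.43 ± 0.13 (adjusted p = 0.316). Ifih1 (MDA5), which detects long double-stranded RNA, read 295, 230.5 and 219 in C-peptide-treated cells, against 285 and 309 in untreated cells. Tlr3, the endosomal receptor for double-stranded RNA, read 125, 219.5 and 181 in C-peptide-treated cells, against 169.5 and 195 in untreated cells. The groups overlapped for both, at -0.25 ± 0.17 for Ifih1 and -0.08 ± 0.23 for Tlr3, and the Tlr3 difference was 0.12 without treated animal 1, the lowest array. Zbp1, a sensor of Z-form nucleic acid, had a difference of -0.38 ± 0.20, with treated animal 1 between the untreated arrays. The Rig1 probe set, for RIG-I, read 244, 313 and 284 in C-peptide-treated cells, against 329 and 323 in untreated cells, the treated arrays all below the untreated by a small margin, at -0.21 ± 0.15 (adjusted p = 0.657).

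Among the enzymes that act on RNA, the 2 members with the clearest separation were oligoadenylate synthetase genes. Oas1a, which makes the messenger that activates the nuclease RNase L, read 47.8, 51.9 and 38.3 in C-peptide-treated cells, against 114 and 126 in untreated cells, or 2.20-fold lower on the fitted scale. Oasl, an OAS-like protein that in humans enhances RIG-I signalling, read 108, 104 and 97.9 in C-peptide-treated cells, against 199.9 and 177 in untreated cells. Both groups of arrays stood apart, with little spread within the treated group, and the differences were -1.14 ± 0.16 (adjusted p = 0.0979) for Oas1a and -0.78 ± 0.14 (adjusted p = 0.128) for Oasl. Oas2 had treated values of 30.2 to 31.5 and untreated values of 38.3 and 39.2, low on the scale of the array, and a difference of -0.22 ± 0.13.

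The other enzymes of this kind differed less or not in one direction. Adar, which edits adenosine to inosine in double-stranded RNA, read 303, 372 and 320.3 in C-peptide-treated cells, against 488 and 389 in untreated cells. Its treated arrays all lay below the untreated ones, the highest treated close to the lower untreated array, at -0.38 ± 0.17 (adjusted p = 0.447). Eif2ak2 (PKR), the kinase that halts translation on binding double-stranded RNA, read 416, 268 and 247 in C-peptide-treated cells, against 289 and 331 in untreated cells. Treated animal 1 was the highest array and the other treated arrays the lowest, and the difference was -0.03 ± 0.23, with a 95% interval of -0.57 to 0.51. Isg20, an exonuclease, read 54.4, 57.9 and 55.5 in C-peptide-treated cells, against 47.4 and 55.7 in untreated cells, with overlapping groups and a difference of 0.09 ± 0.14.

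Of the IFIT proteins, IFIT1 binds viral RNA that lacks the host cap marks. Ifit2 read 608, 293 and 279 in C-peptide-treated cells, against 824 and 802 in untreated cells, and Ifit3 read 868, 288 and 338 in C-peptide-treated cells, against 601 and 685 in untreated cells. Treated animals 2 and 3 stood well below both untreated animals in each gene, while treated animal 1 came between the groups in Ifit2 and above all other arrays in Ifit3. The differences were -1.11 ± 0.32 (adjusted p = 0.266) for Ifit2 and -0.53 ± 0.42 (adjusted p = 0.693) for Ifit3. On leaving out each array, Ifit2 ran from -0.91 to -1.45 and Ifit3 from -0.24, without treated animal 2, to -0.997, without treated animal 1. Ifit1 read 35.8, 24.8 and 25.6 in C-peptide-treated cells, against 18.1 and 26.8 in untreated cells, which lay low on the array's scale, at the 18.4th percentile of all probe sets by mean intensity. Its groups overlapped, and the difference was 0.22 ± 0.18.

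The interferon-induced GTPases held the largest difference of the set. Mx2, a dynamin-like antiviral GTPase, read 281, 389 and 676 in C-peptide-treated cells, against 1713 and 1674 in untreated cells, and was 3.91-fold lower on the fitted scale. Its relative Mx1 read 56.1, 96.3 and 80.4 in C-peptide-treated cells, against 189 and 189.6 in untreated cells, 2.23-fold lower. In both genes treated animal 1 was the lowest of the 5 arrays, and the untreated arrays were within a few percent of each other. The differences were -1.97 ± 0.32 (adjusted p = 0.112) for Mx2 and -1.16 ± 0.20 (adjusted p = 0.125) for Mx1. In the values as deposited, without normalisation, the Mx2 difference was -2.17 (adjusted p = 0.0257), where 0.178% of all probe sets passed at adjusted p 0.05 in either direction and Mx2 was the only member to do so. The Mx genes are close relatives in sequence, and the share of signal that a probe set takes from the other was not tested.

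The guanylate-binding proteins and immunity-related GTPases attack the vacuoles of intracellular microbes. Gbp5 read 194, 193 and 139.9 in C-peptide-treated cells, against 307 and 319 in untreated cells, and Gbp2 read 404, 265 and 195 in C-peptide-treated cells, against 460.2 and 505 in untreated cells. Irgm read 175, 158 and 151 in C-peptide-treated cells, against 267 and 247 in untreated cells. These 3 separated the groups, with differences of -0.79 ± 0.18 (adjusted p = 0.176) for Gbp5, -0.77 ± 0.27 (adjusted p = 0.368) for Gbp2 and -0.62 ± 0.14 (adjusted p = 0.180) for Irgm. Ifi47 read 425, 291 and 292 in C-peptide-treated cells, against 437 and 419.9 in untreated cells, and Igtp read 232, 129.8 and 149 in C-peptide-treated cells, against 162 and 171 in untreated cells. In Ifi47 treated animal 1 lay between the untreated arrays, and in Igtp it was above them all, and the differences were -0.36 ± 0.19 for Ifi47 and -0.01 ± 0.23 for Igtp. Of the 7 GTPases, 5 were lower at unadjusted p 0.05, as were 6.3% of all probe sets, and the median of the 7 was -0.77.

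In the group of genes for ISG15, ubiquitin and ADP-ribose, the enzymes that remove and attach ISG15 were lower together. Usp18, the protease that removes ISG15 and also dampens signalling at the type I receptor, read 12.8, 18.9 and 19.2 in C-peptide-treated cells, against 57.9 and 54.6 in untreated cells. Herc6, the ligase that attaches ISG15 in mice, read 127, 160 and 129 in C-peptide-treated cells, against 242 and 274 in untreated cells. Usp18 had the smallest p of the set, at -1.14 ± 0.15 (adjusted p = 0.0966), though on treated arrays it read at 19.2 or less, where the added 16 compresses a fold, and was -1.70 at a pseudocount of 1 and -0.57 at 64. The difference was -0.83 ± 0.16 (adjusted p = 0.138) for Herc6. Isg15 itself, the ubiquitin-like modifier, read 433, 145 and 166 in C-peptide-treated cells, against 354 and 578 in untreated cells, with the spread of both groups wide and overlapping, at -0.99 ± 0.44 (adjusted p = 0.454). Its difference was -0.64 without untreated animal 2 and -1.46 without treated animal 1.

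Dtx3l, a ubiquitin ligase that pairs with PARP9, read 122, 83.6 and 92.5 in C-peptide-treated cells, against 187 and 189 in untreated cells, and differed by -0.84 ± 0.18 (adjusted p = 0.161) without overlap. Its partner Parp9, which is transcribed from the neighbouring locus in the opposite direction, had treated values of 193 to 270 and untreated values of 252 and 275, with a difference of -0.25 ± 0.18. Trim25, the ligase that activates RIG-I, read 493, 466 and 405 in C-peptide-treated cells, against 618 and 550.3 in untreated cells, without overlap and at -0.35 ± 0.15 (adjusted p = 0.445). The median of the 6 measured genes of this group was -0.83, with 3 lower at unadjusted p 0.05, as were 6.3% of all probe sets.

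Of the 10 other effectors measured, 9 were lower at unadjusted p 0.05 and also without overlap, and the median was -0.74. Over all probe sets, 6.3% were lower at that threshold and 13.8% were lower without overlap. Bst2 (tetherin), which holds budding virus at the cell surface, read 567, 447 and 398 in C-peptide-treated cells, against 962 and 1011 in untreated cells, 2.08-fold lower on the fitted scale. Ifi44 read 99.4, 98.3 and 80.1 in C-peptide-treated cells, against 206 and 192 in untreated cells, and its neighbour Ifi44l read 73.3, 86.9 and 85.4 in C-peptide-treated cells, against 131 and 148 in untreated cells. The differences were -1.06 ± 0.18 (adjusted p = 0.118) for Bst2, -0.99 ± 0.15 (adjusted p = 0.102) for Ifi44 and -0.67 ± 0.15 (adjusted p = 0.171) for Ifi44l.

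Rsad2 (viperin), which makes a chain-terminating nucleotide, read 253, 258 and 154 in C-peptide-treated cells, against 440.5 and 400.1 in untreated cells, and Cmpk2, the nucleotide kinase encoded beside it, read 76.6, 143 and 67.4 in C-peptide-treated cells, against 205 and 174 in untreated cells. Both had a treated group below the untreated one, although treated animal 2 came closest to the untreated arrays in Cmpk2, at -0.91 ± 0.23 (adjusted p = 0.213) for Rsad2 and -0.94 ± 0.28 (adjusted p = 0.278) for Cmpk2. Ifi27 read 422, 300.1 and 278 in C-peptide-treated cells, against 496 and 629 in untreated cells, and Rtp4, a chaperone of receptors, read 136, 99.5 and 102 in C-peptide-treated cells, against 159 and 246 in untreated cells. They differed by -0.74 ± 0.21 (adjusted p = 0.266) for Ifi27 and -0.75 ± 0.22 (adjusted p = 0.274) for Rtp4, with the untreated arrays further apart from each other than in most members. Without untreated animal 2 the differences were -0.57 for Ifi27 and -0.45 for Rtp4, neither at unadjusted p 0.05.

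Lgals3bp, a secreted galectin-3-binding protein, read 203, 266 and 219 in C-peptide-treated cells, against 378 and 348 in untreated cells. Nmi, a protein that binds Myc, read 53.4, 72.5 and 64.3 in C-peptide-treated cells, against 99.99 and 114 in untreated cells. Neither overlapped between the groups, and the differences were -0.64 ± 0.16 (adjusted p = 0.213) for Lgals3bp and -0.64 ± 0.16 (adjusted p = 0.213) for Nmi. Ifi35, the partner of Nmi, read 71.6, 57.9 and 65.4 in C-peptide-treated cells, against 62.7 and 68.2 in untreated cells, with the groups overlapping and a difference of -0.01 ± 0.15, the member of this role that did not follow the others.

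**Figure D2:**
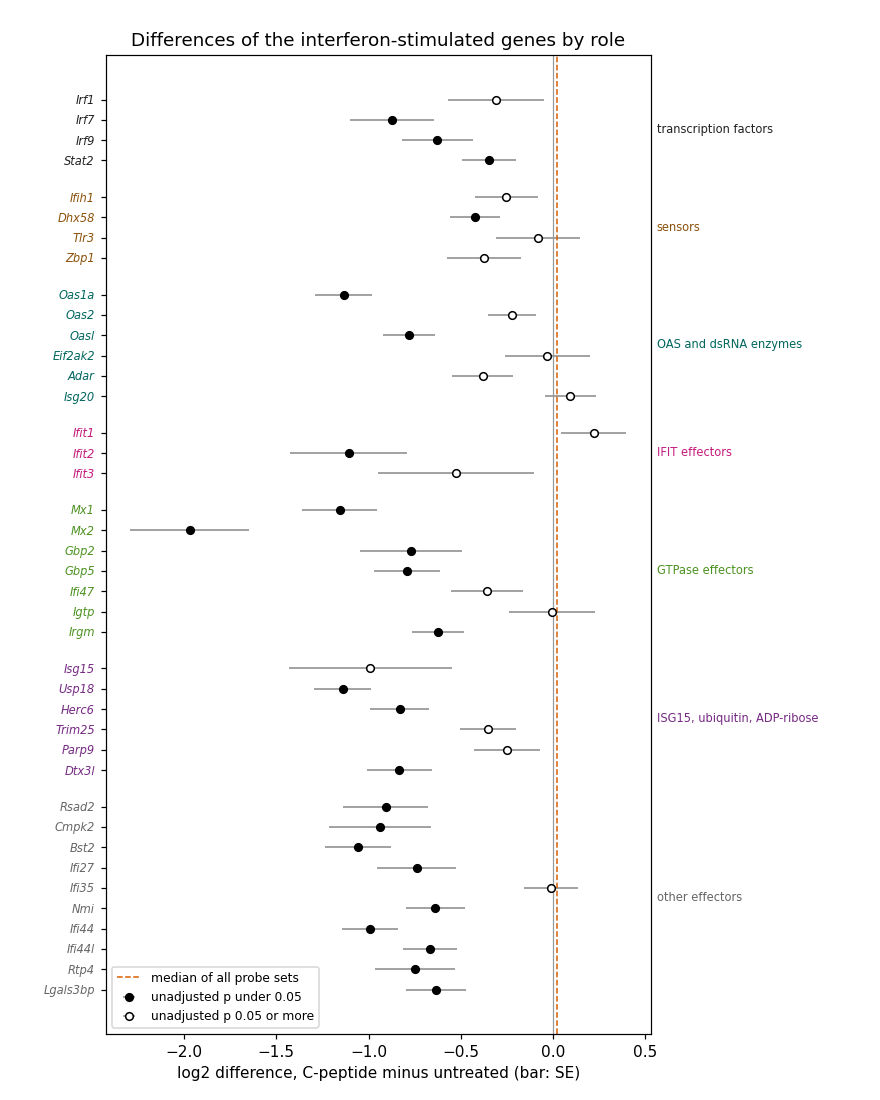
Log2 difference, C-peptide minus untreated, of each of the 40 genes with its standard error, grouped by role. Filled points (24) were at unadjusted p under 0.05, all left of 0, and the dashed line marks the median of all probe sets at 0.02.

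The treated arrays were not ordered alike in all members. Treated animal 1 was the highest treated array for 24 members, the lowest for 11 and between the others for 5. It stood more than 1.5-fold above the mean of treated animals 2 and 3 in 8 members: Ifit3 (log2 difference 1.43), Isg15 (1.39), Ifit2 (1.05), Irf1 (0.81), Gbp2 (0.79), Igtp (0.68), Eif2ak2 (0.66) and Irf7 (0.61). It stood more than 1.5-fold below that mean in 2, Mx2 (-0.83) and Tlr3 (-0.61), and Mx1 was at -0.53. The untreated arrays were closer, with log2 differences between animals 1 and 2 from -0.68 for Isg15 to 0.32 for Adar, and animal 1 the higher in 18 of 40. Treated animal 1 also had the lowest median intensity before normalisation, 60.1, and whether that bears on the spread was not tested. Of the 24 members lower at unadjusted p 0.05, 8 (Irf9, Stat2, Dhx58, Ifit2, Gbp2, Cmpk2, Ifi27 and Rtp4) missed that threshold when some single array was left out, and Gbp2 and Stat2 each missed it in 4 of the 5 such fits. A gene whose treated arrays scatter in this way, such as Ifit3, has a wide interval, -1.51 to 0.46, and its difference cannot be told from 0 at this number of arrays.

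**Figure D3:**
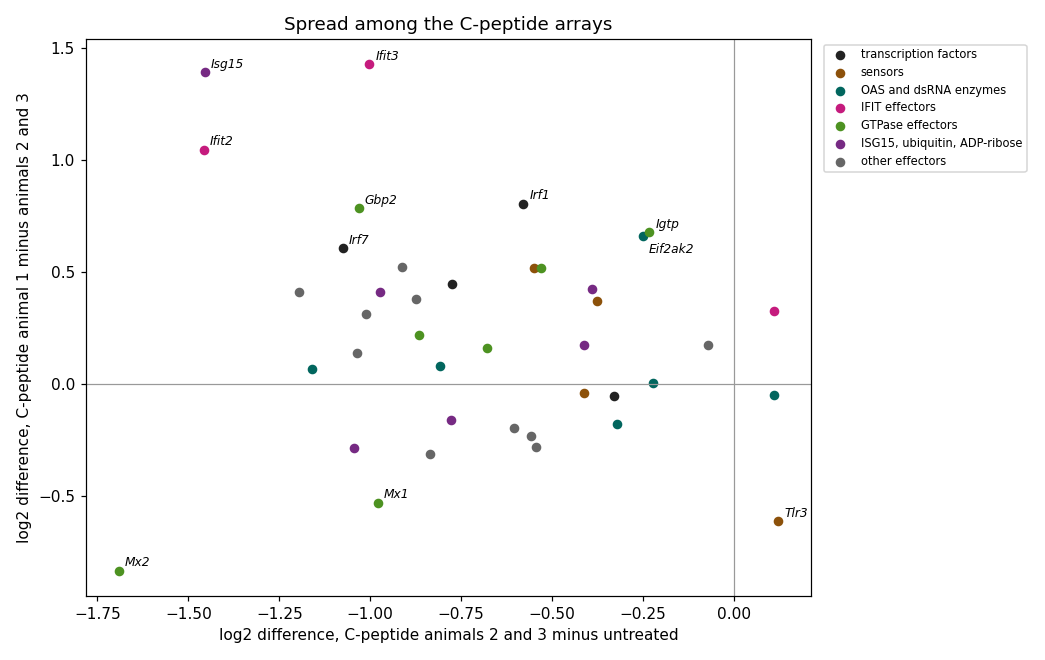
For each of the 40 genes, the log2 difference of treated animals 2 and 3 from the untreated mean (horizontal) against that of treated animal 1 from animals 2 and 3 (vertical), coloured by role. Ifit3, Isg15 and Ifit2 lie at the top, where treated animal 1 is high, and Mx2 at the bottom left.

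Of 48 listed interferon ligands, receptors, signalling proteins, inhibitors and targets outside the set, 36 were measured, with a median log2 difference of -0.22. At unadjusted p 0.05, 9 of the 36 were lower and 1 higher, where 6.3% of all probe sets were lower and 5.06% higher. A difference below 0 was found for 28 of them, and for 46.4% of all probe sets. That list was not tested against the set. The ligands Ifnb1, Ifna4, Ifng and Ifnk had differences of -0.02 ± 0.19, 0.06 ± 0.14, -0.27 ± 0.21 and -0.45 ± 0.21, and all of them lay below the median probe set by mean intensity.

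Of the receptors, Ifngr1, the ligand-binding chain for interferon gamma, read 233, 289.5 and 281 in C-peptide-treated cells, against 425 and 466 in untreated cells, without overlap, at -0.71 ± 0.16 (adjusted p = 0.171). Ifnar1, a chain of the type I receptor, read 148, 229 and 166 in C-peptide-treated cells, against 219.6 and 221 in untreated cells, with overlap, and its difference was -0.28 ± 0.20. Ifngr2 was at 0.05 ± 0.16 and Il10rb, a chain of the type III receptor, at -0.05 ± 0.15. Receptor chains thus lay on both sides of 0, and Ifngr1 stood apart.

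Among the signalling inhibitors, Socs3, a feedback inhibitor of JAK kinases that several cytokines induce, read 876, 1029 and 792 in C-peptide-treated cells, against 2022 and 1562 in untreated cells, at -0.98 ± 0.18 (adjusted p = 0.134). Among the targets outside the set, Psmb8, a subunit of the immunoproteasome, read 86.0, 90.9 and 88.4 in C-peptide-treated cells, against 154 and 176 in untreated cells, at -0.79 ± 0.14 (adjusted p = 0.125), and 7 of the 8 measured antigen presentation genes lay below 0. Tap1, the peptide transporter for MHC class I, read 137, 117 and 98.8 in C-peptide-treated cells, against 235 and 178 in untreated cells, at -0.73 ± 0.19 (adjusted p = 0.216). The inhibitor and these targets were lower on all treated arrays.

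The chemokine targets lay on both sides of 0. Ccl5, a chemokine for T cells, read 468, 291 and 385 in C-peptide-treated cells, against 859.8 and 882 in untreated cells, at -1.18 ± 0.21 (adjusted p = 0.123). Cxcl11, a ligand of CXCR3, read 316, 95.5 and 139 in C-peptide-treated cells, against 68.5 and 79.8 in untreated cells, at 0.99 ± 0.41 (adjusted p = 0.425), higher on every treated array. Cxcl10, another ligand of CXCR3, named here after its values were seen, read 1205, 348 and 736 in C-peptide-treated cells, against 424 and 483 in untreated cells, with treated animal 1 the highest and treated animal 2 the lowest array, and a difference of 0.57 ± 0.44. Cxcl9, also a ligand of CXCR3 and likewise named after its values were seen, went the other way, at -0.43 ± 0.31. It read 68.5, 21.2 and 34.8 in C-peptide-treated cells, against 56.8 and 57.8 in untreated cells, with overlap. Treated animal 1 was the highest array for all of these CXCR3 ligands, as it was for Ifit3 and Irf1.

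Markers of some other cell types differed alongside the set. All 14 proximal tubule markers listed were measured, none lay below the median probe set, and each had a difference above 0, with a median of 0.58, so markers of the labelled cell type were present on every array. Of 13 measured endothelial markers, 12 lay below 0, with a median of -1.12, and their summed intensity was 8316 to 12649 on the treated arrays and 19811 to 22600 on the untreated arrays. Of 16 measured immune cell markers, 15 lay below 0, with a median of -0.46, and their sum was 2885 to 3960 on the treated and 5076 to 5157 on the untreated arrays. No endothelial or immune marker had an intensity of 0 on any array, but only 103 to 116 of 29215 probe sets did on each array. A value above 0 therefore does not tell whether a marker is expressed. By mean intensity no endothelial marker lay below the median probe set, whereas 4 of the 16 immune markers did. Of 4 measured podocyte markers, 2 were lower at unadjusted p 0.05, as were 6.3% of all probe sets. Podxl, which endothelial cells also express, was at -1.32, Synpo at -0.65, Wt1 at -0.17 and Nphs1 at 0.11. The 5 stromal markers had a median of -0.16, none of them at unadjusted p 0.05, and ran from -0.36 to 0.15. Of the plasmacytoid dendritic cell markers, Siglech was not measured here and Ccr9 had a difference of 0.06, while Tcf4, which endothelial cells also express, was at -0.92. The summed intensity of the 40 interferon-stimulated genes was 9874, 7624 and 7152 on the arrays of treated animals 1, 2 and 3, against 13387 and 13704 on those of untreated animals 1 and 2. Treated animal 1 thus had the highest sum of the set among the treated arrays, whereas treated animal 2 had the highest endothelial and immune sums, 12649 and 3960. The part of cell makeup in the differences of the set was not tested.

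**Figure D4:**
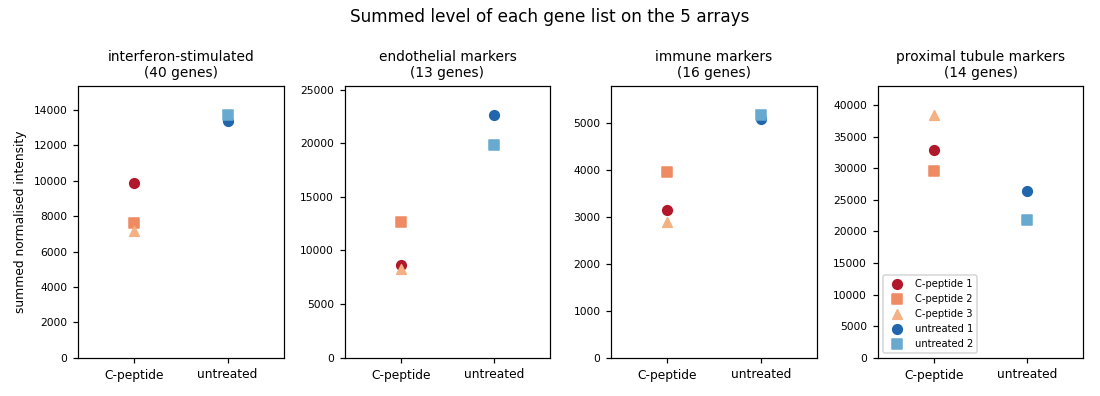
Summed quantile-normalised intensity (arbitrary units, axes from 0) of the 40 interferon-stimulated genes and of 13 endothelial, 16 immune and 14 proximal tubule markers, 1 point an array, C-peptide left and untreated right. The first 3 lists are lower on every C-peptide array and the proximal tubule markers higher.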

How the data were processed

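The authors deposited 1 linear intensity per probe set and array; the submitters' processing notes name PLIER and Affymetrix Expression Console 1.1. Their background correction and scaling are not stated in what was used here. Every column belonged to a sample. Because the array medians differed, intensities were quantile-normalised, taken to log2(value + 16) and fitted with group as the only term in limma 3.58.1 (R 4.3.3, two-sided, Benjamini-Hochberg adjustment over 29215 probe sets). The scripts were tested on simulated data. Labels give each array an animal number within its group, and the number of arrays limits the precision. Animal numbers 1 and 2 occur in both groups, and nothing in the labels says that they pair samples. Whether same-numbered samples came from the same animal is not stated either.

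The members, roles and lists were chosen with earlier results of these data known. Values on each array were given for members at unadjusted p 0.05, for members above 0 and for the 2 brightest others of each role; of other pathway genes those at unadjusted p 0.05 were named, at most 4 a direction, with the receptors. Alternatives were other normalisations, pseudocounts, filters, variance priors, array weights, the animal number as a block and leaving out each array. Promoters are from RefSeq, GRCr8, matched by gene ID.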

Additional observations from a re-analysis of the deposited data

How the results depend on the processing

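Over 14 alternatives, 34 of the 40 members kept a difference below 0 in each setting that measured them, and 16 were at unadjusted p under 0.05 in each. How many of all probe sets did either was not counted. On leaving out each treated array, 22 to 31 members were lower at that threshold, beside 5.21% to 6.56% of all probe sets. Fewer members were lower when either untreated array was left out. That leaves the untreated group without a replicate, so those counts are not given. The median of the members was -0.73 to -0.58 on leaving out each array of either group. The count past adjusted p 0.05 moved with the setting. Over all 29215 probe sets it was 52 in the values as deposited, 29 with arrays centred and 207 with a trended and robust prior. It was 1 at a pseudocount of 1 and 118 at a pseudocount of 64. The filters tested fewer probe sets, and the count was 393 of 14607 above the median intensity and 329 of 15310 with a single symbol. It was 0 with array weights, the animal number as a replicate block, or any array left out. Among the members, 11 passed in some setting and 0 in every one. There were 10 of 40 with a single symbol alone, 9 of the 33 measured above the median intensity and 6 of 40 with the trended prior. At a pseudocount of 64 there were 3, and as deposited only Mx2. Keeping probe sets with a single symbol cut the number tested and also changed the variance prior. The unadjusted p of Gbp5 in limma was 0.00259 in the main fit and 0.000943 there. The median difference was -0.86 as deposited, where all probe sets had a median of -0.13, and -0.52 at a pseudocount of 64. With the block, 22 members were lower at unadjusted p 0.05, beside 5.44% of all probe sets, and the median was -0.59. Treated animal 3 shared its number with no untreated array, so it added nothing to the differences in the block. The median without treated animal 3 was also -0.59. Same-numbered samples had deviations correlated at -0.025 and 0.008. Differently numbered ones mirrored these, at 0.025 and -0.008, as there were 2 untreated arrays, so the values are not separate checks of pairing. Of the members near 0, Isg20 turned to -0.032 as deposited, Ifi35 to 0.0064 with arrays centred, Tlr3 to 0.021 with array weights, and Eif2ak2 to 0.11 and Igtp to 0.062 with the block. On leaving out each array, Tlr3 ran from -0.25 to 0.12, Eif2ak2 from -0.25 to 0.11, Igtp from -0.24 to 0.15 and Ifi35 from -0.073 to 0.052. The cause of these changes was not tested. Each gene had 1 probe set, so averaging probe sets gave no other value.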
